A study of Mus musculus with 516 samples.

Results

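The collagen, laminin and integrin genes of a single-cell RNA sequencing table of mouse dorsal root ganglia were taken by symbol alone, as every row whose name is a numbered collagen chain, a numbered laminin alpha, beta or gamma chain, or Itga or Itgb with a suffix. The rule found 39 of the 11251 genes in the table. They are 21 collagen chains, 5 laminin chains (Lama2, Lama4, Lamb1, Lamb2 and Lamc1), 11 integrin subunits (Itga1, Itga3, Itga5, Itga6, Itga7, Itgav, Itgb1, Itgb3, Itgb4, Itgb5 and Itgb8) and 2 proteins that carry the prefix but are not subunits, Itgb1bp1 and Itgb3bp, which bind the tails of integrin beta 1 and beta 3. All 39 entered every comparison and none was removed by a filter on low values. The table lists genes with reads in 60 or more of the 516 cells. Chains outside it, among them laminin alpha 5 and integrin alpha 9, were not analysed here.

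Dorsal root ganglia hold the cell bodies of sensory neurons, and the 516 cells came from mice of 2 inbred strains. Of 273 CAST/Ei cells 99 were injured and the others naive, and of 243 C57BL/6 cells 45.7% were injured and 54.3% naive. Injured cells had undergone in vitro axotomy, that is, the dissociated ganglia were plated on plastic for 48 h, with the mitotic inhibitor ara-C added at 24 h, and lifted with trypsin. Naive cells were not cultured, and all 4 groups then passed a 35 µm mesh and a Percoll step of density 1.04 before capture on a microfluidic chip. Axotomy, culture, ara-C and lifting therefore differ together between injured and naive cells. The labels give no age, sex, animal, culture or capture run, so each group was treated as 1 sample. No difference below has a replicate check, and no p-value was computed. The differences are given as values, with exact 95% Poisson intervals that cover counting error only.

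Cells had 13932 to 2978345 reads, with a median of 839147. Median depth was 1111710 reads in injured and 960205 in naive CAST/Ei cells, and 729522 in injured and 696013 in naive C57BL/6 cells. Cells were grouped by clustering without the 39 genes and named from marker lists, which gave 368 neuron-like cells. Of the 217 neuron-like CAST/Ei cells 61 were injured and 71.9% naive, and of the C57BL/6 ones 35 were injured and 76.8% naive. None of the 34 listed neuron markers was at 0 in any of these 4 sets, and the beta tubulin Tubb3 stood at 1886 CPM (reads of the gene per 1000000 reads, over the summed cells) in injured and 2607 CPM in naive CAST/Ei neuron-like cells, and at 3180 and 3434 CPM in the C57BL/6 ones. The other injured cells were fibroblast-like (13 CAST/Ei and 43 C57BL/6 cells) or glia-like (25 CAST/Ei and 33 C57BL/6 cells), with Tubb3 between 229 and 367 CPM. The other naive cells, 18 CAST/Ei and 16 C57BL/6, formed a cluster led by endothelial and interferon-induced genes that stayed unnamed. These cells had neuron markers too. Their Tubb3 stood at 722 CPM in CAST/Ei and 1145.5 CPM in C57BL/6. By mean log2(CPM + 1) their neuron markers (5.04) lay above their glia (4.99) and endothelial ones (4.09).

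Collagens are triple helices of 3 alpha chains. Types I, III and V form the fibrils of the connective tissue around nerve fibres, type IV the network of basement membranes and type VI fine beaded filaments. Laminins are trimers of an alpha, a beta and a gamma chain, and in peripheral nerve the forms with alpha 2 or alpha 4 line the basement membrane that Schwann cells lay down. Integrins are pairs of an alpha and a beta subunit that bind these proteins from the cell surface. Integrin alpha 7 beta 1, alpha 3 beta 1 and alpha 6 beta 1 are laminin receptors, alpha 1 beta 1 binds collagen, alpha 5 beta 1 fibronectin, and alpha V pairs with several beta subunits. In sensory neurons, integrins that bind laminin mediate axon outgrowth, and Itga7 is known to be raised in axotomised rodent neurons.

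Promoter windows from RefSeq (build GRCm38.p6, 250 bases before to 50 bases after an annotated start) were found for 29 of the 39 genes. The windows of the type IV chains Col4a1 and Col4a2 are shown because these neighbours start from one stretch of chromosome 8 in opposite directions, so that the windows overlap, and those of Itgav and Itga3 because these alpha subunits lay on opposite sides of the injured against naive comparison. In the first pair the capitals mark the 78 bases that both windows hold (8:11312777 to 11312854), read from opposite strands, with start sites 21 bases apart. In the other pair they mark the GC box GGGCGG.
Col4a1 (chr8:11312777-11313076, minus strand): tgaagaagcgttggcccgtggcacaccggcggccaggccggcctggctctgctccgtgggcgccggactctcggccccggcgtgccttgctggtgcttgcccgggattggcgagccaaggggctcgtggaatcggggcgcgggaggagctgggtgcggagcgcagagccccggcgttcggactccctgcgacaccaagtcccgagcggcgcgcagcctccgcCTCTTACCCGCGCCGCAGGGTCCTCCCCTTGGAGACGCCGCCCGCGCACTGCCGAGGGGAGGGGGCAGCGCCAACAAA
Col4a2 (chr8:11312555-11312854, plus strand): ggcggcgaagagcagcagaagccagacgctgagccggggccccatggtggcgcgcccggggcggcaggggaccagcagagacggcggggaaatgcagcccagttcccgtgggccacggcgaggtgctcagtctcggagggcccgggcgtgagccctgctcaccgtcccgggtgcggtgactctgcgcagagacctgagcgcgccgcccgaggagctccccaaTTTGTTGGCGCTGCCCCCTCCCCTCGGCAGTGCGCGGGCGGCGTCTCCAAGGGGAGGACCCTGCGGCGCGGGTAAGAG
Itgav (chr2:83724147-83724446, plus strand): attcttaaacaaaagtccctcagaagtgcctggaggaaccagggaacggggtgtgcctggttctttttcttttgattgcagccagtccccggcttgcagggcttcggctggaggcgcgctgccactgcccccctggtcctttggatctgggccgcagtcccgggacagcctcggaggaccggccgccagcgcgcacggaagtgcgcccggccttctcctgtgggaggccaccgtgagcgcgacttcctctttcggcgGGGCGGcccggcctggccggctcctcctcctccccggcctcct
Itga3 (chr11:95076665-95076964, minus strand): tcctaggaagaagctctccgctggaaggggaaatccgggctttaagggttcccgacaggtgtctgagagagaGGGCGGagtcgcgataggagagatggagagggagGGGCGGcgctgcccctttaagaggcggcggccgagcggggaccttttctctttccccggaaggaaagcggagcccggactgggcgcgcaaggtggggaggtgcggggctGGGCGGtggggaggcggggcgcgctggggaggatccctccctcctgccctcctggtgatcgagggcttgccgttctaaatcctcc
Searched on both strands, GGGCGG was in 21 of the 32 windows of these genes (65.6%) and in 35.7% of all 32851 windows. The windows of these genes also held more CG letter pairs, with a median of 14.5 against 7 over all windows. The CCAAT box (CCAAT) was in 10 windows (31.2%, against 37.4% of all windows) and the AP-1 motif TGANTCA in 2 (6.25%, against 7.81%), those of Col6a1 and Itga3, the AP-1 match of Itga3 lying in a window not printed. Such matches describe the letters of the windows and nothing about binding.

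Injured neuron-like cells had far more reads of these genes than naive ones in both strains. In CAST/Ei injured cells 29 of the 39 genes stood 2-fold or more above naive cells and 1 stood 2-fold or more below, where 23.1% and 22.5% of all 11251 genes did. In C57BL/6 31 stood above and 2 below by this measure, where 20.8% and 24.3% of all genes did. The median log2 ratio of CPM + 1 over the 39 genes was 1.92 in CAST/Ei (0.01 over all genes) and 2.20 in C57BL/6 (-0.15 over all genes). The same 27 genes were at least 2-fold higher in both strains, 69.2% of the 39, where 12.7% of all genes were, and 1 gene, Itga3, was at least 2-fold lower in both, where 13.8% of all genes were. Different cells were sequenced in each group, and a shift in the kinds of neuron captured cannot be told apart from one inside the cells.

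**Figure D1:**
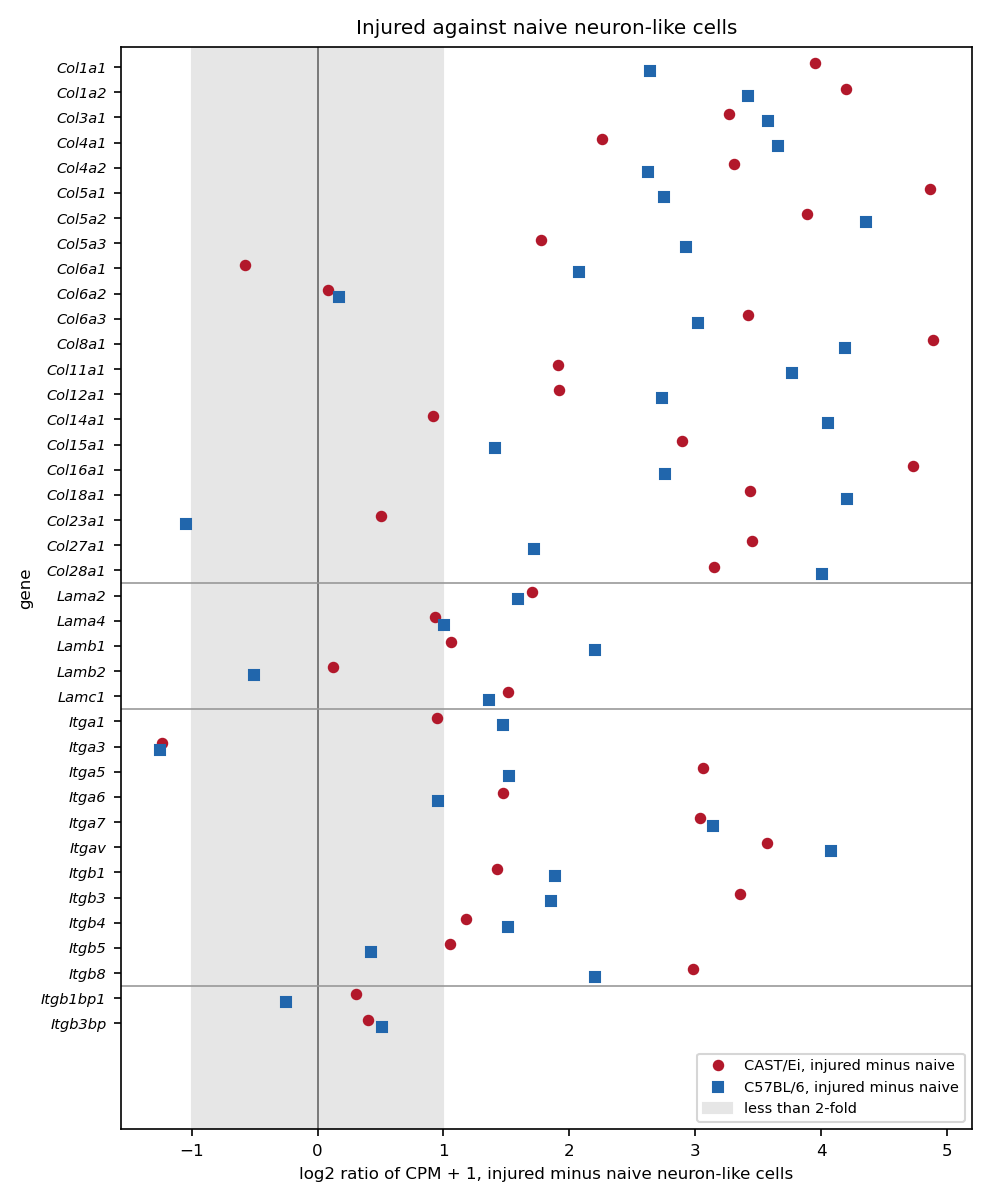
Log2 ratio of CPM + 1, injured minus naive neuron-like cells, for each of the 39 genes in CAST/Ei (circles) and C57BL/6 (squares), with the band under 2-fold in grey and lines between collagens, laminins, integrin subunits and integrin-binding proteins. Most points lie to the right of the band, Itga3 lies to its left in both strains, and Col6a1, Col23a1, Lamb2 and Itgb1bp1 have opposite signs in the 2 strains.

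The collagens took the largest share of the difference. Summed over the 21 chains, injured neuron-like cells had 2071 CPM (2060 to 2083) and naive ones 167.1 CPM (165.1 to 169.1) in CAST/Ei, and 1384 CPM (1367 to 1401) and 119.2 CPM (117.04 to 121.5) in C57BL/6. Of the 21 chains 17 were at least 2-fold higher and none 2-fold lower in injured CAST/Ei cells (median log2 ratio 3.27), and 19 were higher and 1 lower in injured C57BL/6 cells (median 2.93), where 23.1% and 20.8% of all genes were higher. In single cells, after thinning each to 200000 reads, 0 of 55 injured and 27.7% of naive CAST/Ei neuron-like cells had no collagen chain at 5 or more reads, and 3.57% and 56.9% of the C57BL/6 ones.

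Col5a2, a chain of the fibril-organising type V collagen (chromosome 1, 45374321 to 45503282), was the highest by ratio in C57BL/6. Injured CAST/Ei neuron-like cells had 447 CPM (442 to 452; cells 5.08 lowest, 315 median, 2623 highest) and naive ones 29.3 CPM (28.5 to 30.1; 0, 17.6 and 210 by cell), a log2 ratio of 3.89. Injured C57BL/6 cells had 192 CPM (186 to 199; 0, 152.4 and 1008 by cell) and naive ones 8.42 CPM (7.85 to 9.03; 0, 0 and 322 by cell), a log2 ratio of 4.36. None of the 61 injured and 16.7% of the naive CAST/Ei cells had no read of it, and 11.4% of the injured and 71.5% of the naive C57BL/6 cells, and the ranges of cells overlapped in both strains. The other type V chains were higher in injured cells as well, Col5a1 with 58.5 against 1.04 CPM in CAST/Ei (log2 ratio 4.86) and 18.7 against 1.92 CPM in C57BL/6 (2.76), and Col5a3 with ratios of 1.77 (1.12 without the top cells, 1 of which held 42.2% of its injured reads) and 2.93.

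The chains of type I collagen, Col1a1 and Col1a2, and the single chain of type III, Col3a1, are classed as products of fibroblasts. Col1a2 stood at 549 CPM (544 to 555) in injured and 29.1 CPM (28.2 to 29.9) in naive CAST/Ei neuron-like cells, and at 232 CPM (225 to 239) and 20.8 CPM (19.9 to 21.7) in C57BL/6, log2 ratios of 4.19 and 3.42. Col1a1, which joins Col1a2 in a trimer of 2 Col1a1 chains and 1 Col1a2 chain, was lower than Col1a2 per kilobase of exon in injured neuron-like cells, at 13.1 against 44.2 CPM per kb in CAST/Ei and 4.79 against 18.7 in C57BL/6. Its log2 ratios were 3.95 and 2.64, and those of Col3a1 were 3.27 and 3.58. The type IV chains Col4a1 and Col4a2, whose windows are printed above, were both higher in both strains. Col4a1 had 99.6 CPM in injured and 20.04 CPM in naive CAST/Ei cells, and 119.9 and 8.58 CPM in C57BL/6 (log2 ratios 2.26 and 3.66). Col4a2 had 116.8 and 10.9 CPM in CAST/Ei, and 53.8 and 7.89 CPM in C57BL/6 (3.31 and 2.62).

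Type VI chains, which form a trimer of alpha 1, alpha 2 and alpha 3, did not move together. Col6a3 was higher in injured cells, with log2 ratios of 3.42 in CAST/Ei and 3.02 in C57BL/6. Without the 1 cell that held 67.8% of its reads in injured CAST/Ei cells and the top cell of each other group, these ratios were 2.09 and 2.63. Col6a1 had 4.00 CPM in injured and 6.46 CPM in naive CAST/Ei cells (-0.58), but 13.7 and 2.49 CPM in C57BL/6 (2.07). Without the top cell, its level in naive CAST/Ei cells was 3.59 CPM. Col6a2 stood at 3.05 and 2.82 CPM in CAST/Ei and at 7.41 and 6.47 CPM in C57BL/6, under 2-fold in both.

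Among the other chains, Col8a1, a short-chain collagen of vessel and other basement membranes, was highest by ratio in CAST/Ei (169.4 against 4.74 CPM, log2 ratio 4.89) and had 101.8 against 4.62 CPM in C57BL/6 (4.19). Col18a1, the precursor of endostatin, had 60.9 against 4.72 CPM and 122.9 against 5.70 CPM (3.44 and 4.21). Col28a1, known from the basement membrane around peripheral glia, had 74.8 against 7.53 CPM and 120.95 against 6.58 CPM (3.15 and 4.01). Col16a1 (4.73 in CAST/Ei) and Col27a1 (3.45) were among the 10 highest there by ratio, and Col14a1 (4.06) and Col11a1 (3.77) in C57BL/6. In injured CAST/Ei cells 1 cell held 66.5% of the reads of Col16a1, and without the top cell of each group its log2 ratio was 3.32. Col12a1 and Col15a1 were higher in both strains, with ratios between 1.41 and 2.89. The CAST/Ei ratio of Col15a1 was 1.96 without the top cell of each group. Col23a1, a transmembrane collagen, had 3.51 CPM in injured and 2.18 CPM in naive CAST/Ei cells (0.50, and -0.31 without the top cells), and 3.82 and 8.93 CPM in C57BL/6 (-1.04).

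**Figure D2:**
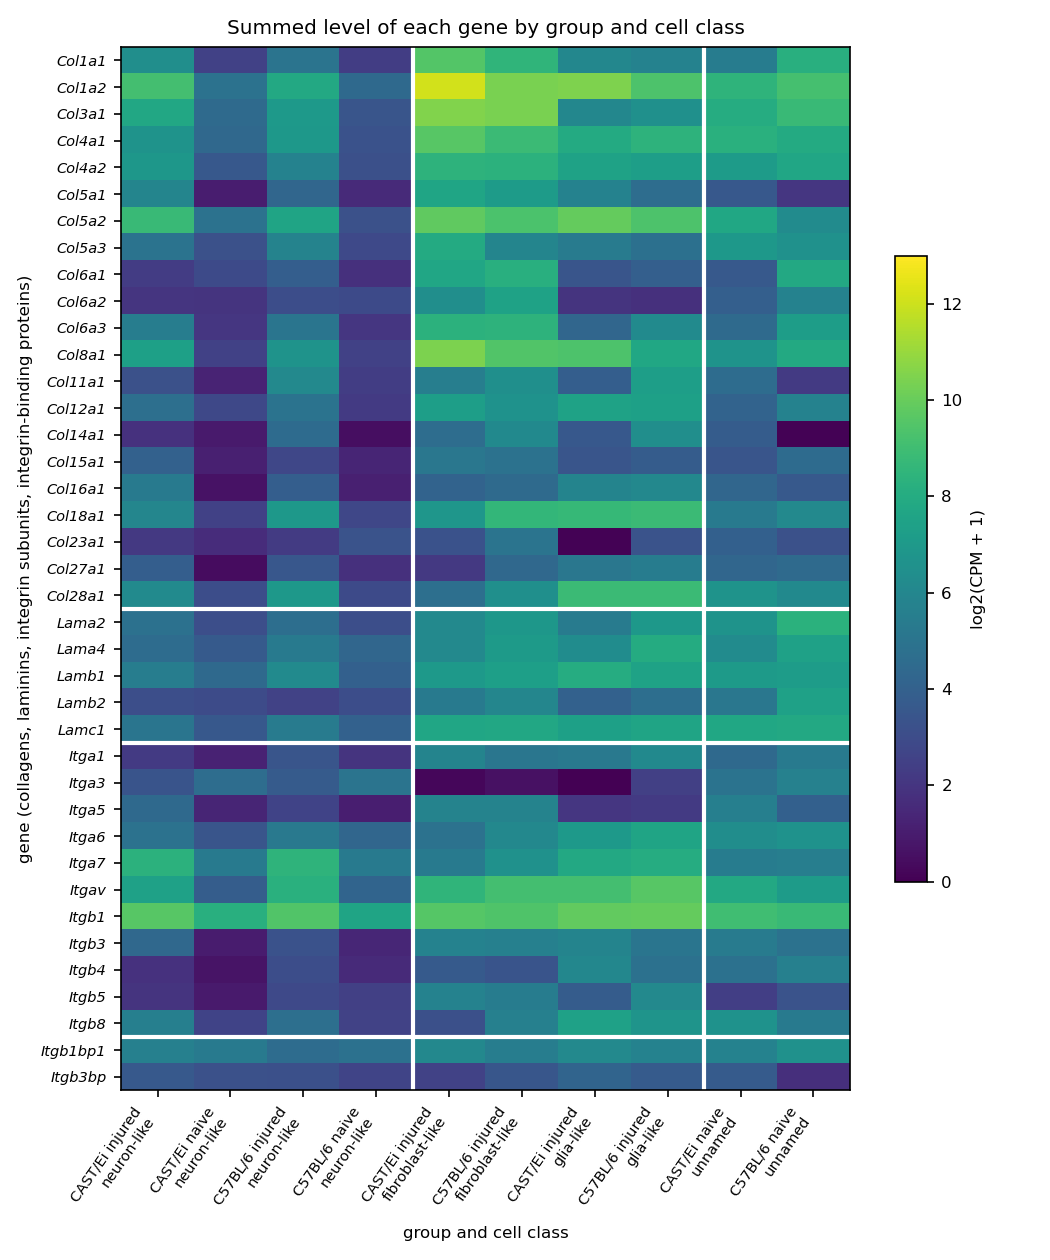
Summed level as log2(CPM + 1) of each of the 39 genes (down the side) in each group and cell class (across), to be read along a row, since the values are not scaled for gene length. White lines divide the gene families and, across, neuron-like cells, the other injured cells and the unnamed naive cells. Most collagen rows are brightest in fibroblast-like cells, Itgb1 is bright in every column, and Itga3 is dark in injured fibroblast-like and glia-like cells.

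Laminin chains were higher in injured cells by less than the collagens. The 5 chains summed to 135.5 CPM (132.7 to 138.4) in injured and 58.007 CPM (56.8 to 59.2) in naive CAST/Ei neuron-like cells, and to 184 CPM (178 to 190) and 64.7 CPM (63.1 to 66.3) in C57BL/6. In CAST/Ei 3 chains passed 2-fold, Lama2 (log2 ratio 1.71), Lamc1 (1.52) and Lamb1 (1.06). Without the top cell of each gene and group Lama2, 46.99% of whose injured CAST/Ei reads were in 1 cell, stood at 1.05, Lamb1 at 0.93 and Lama4 at 1.07. In C57BL/6 4 did, Lamb1 (2.20), Lama2 (1.59), Lamc1 (1.36) and Lama4 (1.005). Of all genes 23.1% and 20.8% passed upward in these comparisons. Lamc1, the gamma chain of nearly all laminins of nerve (chromosome 1, 153218922 to 153332786), had 32.7 CPM (31.4 to 34.2; cells 0, 25.6 and 330 at the lowest, median and highest) in injured CAST/Ei cells and 10.8 CPM (10.3 to 11.3; 0, 0 and 117.2) in naive ones. In C57BL/6 it had 41.9 CPM (38.9 to 44.96; 0, 34.6 and 171.3) in injured and 15.6 CPM (14.9 to 16.5; 0, 0.270 and 340) in naive cells, and the highest naive cell exceeded every injured one. Lamb2, the beta chain that replaces Lamb1 in some laminins, was under 2-fold, at 7.61 against 6.93 CPM in CAST/Ei and 4.98 against 7.47 CPM in C57BL/6. Without the 1 cell that held 71.1% of its reads in injured CAST/Ei cells, and the top naive cell, its log2 ratio there was -1.13.

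Integrin subunits summed to 1420 CPM (1410 to 1429) in injured and 389 CPM (386 to 392) in naive CAST/Ei neuron-like cells, and to 1483 CPM (1465 to 1500) and 315 CPM (311 to 319) in C57BL/6. Of the 11 subunits 9 were at least 2-fold higher in CAST/Ei and 8 in C57BL/6, beside 23.1% and 20.8% of all genes, with Itga3 lower in both.

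Itgb1, the common beta subunit (chromosome 8, 128685654 to 128733200), had the highest level per kilobase of the 39 genes in injured and naive neuron-like cells of both strains. It had 791 CPM (784 to 798; cells 8.54 lowest, 760 median, 2005 highest) in injured and 293 CPM (290 to 296; 0, 259 and 807) in naive CAST/Ei cells, a log2 ratio of 1.43. In C57BL/6 it had 715 CPM (702 to 727; 9.12, 734 and 2529) in injured and 193 CPM (190 to 195; 10.5, 197 and 542) in naive cells, a log2 ratio of 1.89. After thinning it had 5 or more reads in 98.2% of injured and 98.6% of naive CAST/Ei cells, and in 96.4% and 98.2% of C57BL/6 cells, so that nearly every neuron-like cell had it and the groups differed in level.

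Itga7, the alpha subunit of the laminin receptor alpha 7 beta 1 (chromosome 10, 128933818 to 128958282), stood at 322 CPM (318 to 327; cells 0, 195 and 2838) in injured and 38.3 CPM (37.4 to 39.3; 0, 27.3 and 519) in naive CAST/Ei neuron-like cells. In C57BL/6 it stood at 350.0 CPM (341 to 359; 0, 321 and 1765) in injured and 38.8 CPM (37.5 to 40.03; 0, 21.3 and 573) in naive cells. The log2 ratios of 3.04 and 3.14 were close in the 2 strains, the median injured cell lay above the median naive cell in both, and the ranges of cells overlapped. It had 5 or more thinned reads in 83.6% of injured and 50.7% of naive CAST/Ei cells, and in 92.9% and 43.1% of C57BL/6 cells.

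Itgav, the alpha subunit of receptors for vitronectin and latent TGF-beta (chromosome 2, 83724397 to 83806916), had the highest ratio of the subunits in both strains. It had 171.02 CPM (167.8 to 174.3; cells 0, 97.5 and 861) in injured and 13.5 CPM (12.9 to 14.04; 0, 0 and 147.6) in naive CAST/Ei cells, and 305 CPM (297 to 313; 0, 160.9 and 1706) and 17.1 CPM (16.3 to 17.9; 0, 1.52 and 521) in C57BL/6, log2 ratios of 3.57 and 4.08. Its partner Itgb8, whose pair with alpha V frees TGF-beta, had 47.9 against 5.18 CPM in CAST/Ei (2.98) and 26.1 against 4.87 CPM in C57BL/6 (2.21). Another partner, Itgb3, known best from platelets, had ratios of 3.36 and 1.85, and Itgb5 had 1.05 and 0.43. Without the top cell of each group the CAST/Ei ratio of Itgb3, with 51.2% of its injured reads in 1 cell, was 2.57, and that of Itgb5 was 0.86.

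Itga3, the alpha subunit of the laminin receptor alpha 3 beta 1 (chromosome 11, 95044474 to 95076801), went the other way. It had 9.53 CPM (8.79 to 10.3; cells 0, 0 and 353) in injured and 23.8 CPM (23.05 to 24.6; 0, 15.9 and 270) in naive CAST/Ei neuron-like cells, a log2 ratio of -1.24. It had 12.4 CPM (10.9 to 14.2; 0, 0 and 160.9) in injured and 31.04 CPM (29.9 to 32.2; 0, 15.5 and 357) in naive C57BL/6 cells, a log2 ratio of -1.25. No read was found in 49 of 61 injured cells and 15.4% of naive cells of CAST/Ei, and in 18 of 35 injured cells and 21.6% of naive cells of C57BL/6. In injured CAST/Ei cells 1 cell held 62.1% of its reads, and without the top cell of each group the log2 ratios were -2.31 in CAST/Ei and -1.77 in C57BL/6.

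Itga6, the alpha subunit of laminin receptors with beta 1 or beta 4, had 28.9 against 9.75 CPM in CAST/Ei (1.48) and 37.1 against 18.7 CPM in C57BL/6 (0.95), and Itgb4 had ratios of 1.18 (0.82 without the top cells) and 1.51 from at most 7.47 CPM. Itga1, the collagen receptor subunit, had ratios of 0.95 and 1.47, also from under 10 CPM. Itga5, the fibronectin receptor subunit, had 20.5 against 1.57 CPM in CAST/Ei (3.06) and 5.20 against 1.16 CPM in C57BL/6 (1.52). In injured CAST/Ei cells 1 cell held 77.5% of its reads, and without the top cell of each group its CAST/Ei ratio was 1.52. The tail-binding proteins differed by less than 2-fold, Itgb1bp1 with 49.8 against 40.04 CPM in CAST/Ei and 23.5 against 28.2 CPM in C57BL/6, and Itgb3bp with 11.5 against 8.48 CPM and 8.13 against 5.39 CPM. Of the exon bases of Itgb1bp1 16.9% are shared with Asap2 and Cpsf3, and 8.59% of those of Itgb3bp with Pgm1, so reads of these neighbours cannot be told apart where the strand of the reads is not known. The same holds for 5.90% of the exon bases of Itgav, shared with Gm13684, and 7.66% of those of Itgb4.

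**Figure D3:**
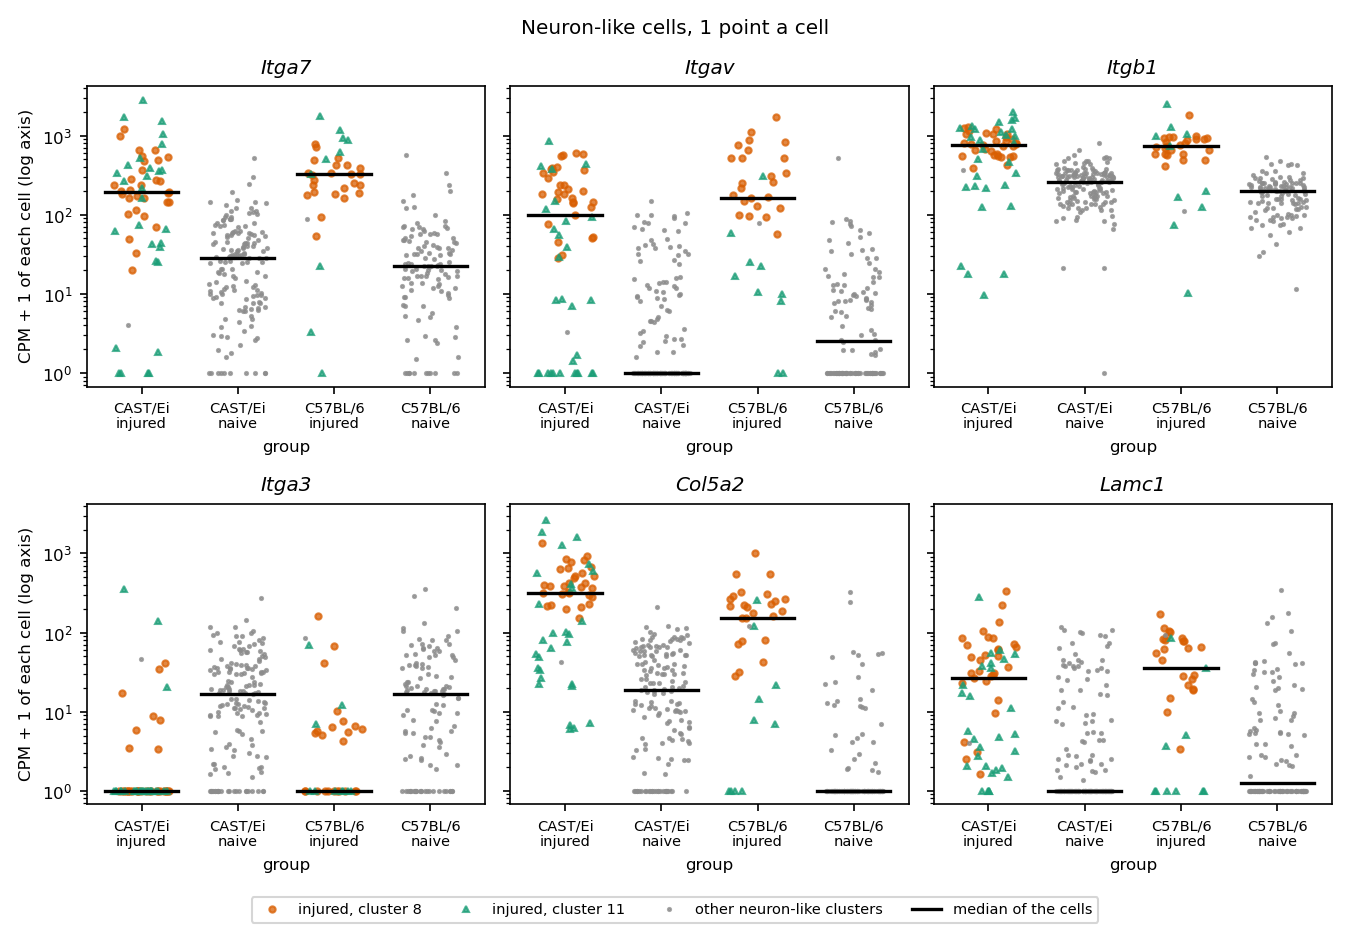
CPM + 1 of 6 genes in each neuron-like cell on a log axis, by group, with circles for injured cells of cluster 8, triangles for injured cells of cluster 11, dots for the other neuron-like cells and a bar at the median cell. Itga7 and Itgb1 are high in both injured clusters, Itgav, Col5a2 and Lamc1 are lower in cluster 11 than in cluster 8 at the median cell, and most injured cells are at 0 for Itga3.

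All but 1 injured neuron-like cell of each strain lay in 2 clusters that differed in markers of other cells. Cluster 8 held 31 CAST/Ei and 24 C57BL/6 cells and had Sprr1a, Sox11 and Gal, known from injured sensory neurons, among its 10 leading genes. Its glia markers had a mean log2(CPM + 1) of 5.33 in CAST/Ei and 5.30 in C57BL/6, close to its neuron markers (5.83 and 5.45). Cluster 11 held 29 CAST/Ei and 10 C57BL/6 cells, with means of 3.23 and 2.83 for glia against 4.98 and 4.85 for neuron markers, where naive neuron-like cells had glia means of 2.82 and 2.95. The whole class of injured neuron-like cells thus moved in these markers too. Of 20 glia markers 12 were at least 2-fold higher in injured than naive CAST/Ei neuron-like cells and 15 in C57BL/6, of 17 fibroblast markers 8 and 11 were, and of 13 cell division genes 13 and 12 were, where 23.1% and 20.8% of all genes were. Summed glia markers ranged from 879 to 10117 CPM over injured and 134.5 to 35414 CPM over naive CAST/Ei neuron-like cells, and from 536 to 8153 CPM and 237 to 19910 CPM over C57BL/6 ones, and none of the 20 glia or 17 fibroblast markers was at 0 in a summed group. Of 34 neuron markers 1 was higher and 18 lower in injured CAST/Ei cells, and 3 and 16 in C57BL/6, where 22.5% and 24.3% of all genes were lower. Of 12 endothelial markers none was 2-fold higher in either strain, 10 in CAST/Ei and 6 in C57BL/6 were 2-fold lower, and 1 was at 0 in injured cells of each strain. Few mural (5) and macrophage (1) markers were in the table. The part of these cells' RNA in the matrix results was not tested.

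Both clusters were set against the naive neuron-like cells of their strain. In cluster 8 31 of the 39 genes passed 2-fold upward and 2 downward in CAST/Ei (17.2% and 19.02% of all genes), and 34 and 1 in C57BL/6 (17.3% and 20.5%). In cluster 11 23 were higher and 4 lower in CAST/Ei (25.4% and 34.4% of all genes), and 15 and 12 in C57BL/6 (20.5% and 52.6%), where only 10 cells and 6831135 reads stood behind the values. Without the cell with most reads of each gene, an alternative added after the data were seen, the counts in cluster 8 were 31 and 2 in CAST/Ei and 34 and 2 in C57BL/6, and in cluster 11 19 and 7 in CAST/Ei (13.6% and 51.8% of all genes) and 7 and 18 in C57BL/6 (6.61% and 73.8%). With all cells, 13 genes (4.16% of all genes) were at least 2-fold higher in both clusters of both strains, Itga7, Itgav, Itgb1 and the collagen chains Col1a2, Col3a1, Col4a1, Col5a1, Col5a2, Col5a3, Col6a3, Col8a1, Col12a1 and Col18a1. Without the top cell of each gene 5 remained, Itga7, Col3a1, Col4a1, Col5a2 and Col8a1, where 1.92% of all genes did. In the 10 cells of C57BL/6 cluster 11, 1 cell held 59.6% of all collagen reads, 93.2% of those of Col1a2, 95.3% of Col5a1, 95.7% of Col6a3 and 94.8% of Col18a1. Without the top cell the log2 ratios there were -0.98 for Col1a2, -0.11 for Col5a1, -0.41 for Col6a3, 0.66 for Col18a1, -0.21 for Itgav and 0.87 for Itgb1. In CAST/Ei cluster 11 the calls of Col5a3 (-0.22) and Col12a1 (0.72) ended. No gene was 2-fold lower in all 4. No laminin chain was among the 13. Lama2 passed 2-fold in CAST/Ei cluster 11 (1.52), where 1 cell held 89.7% of its reads, and stood at -1.11 without it, and in cluster 11 Lamc1 stood at 10.6 CPM in CAST/Ei and 3.07 CPM in C57BL/6, log2 ratios of -0.03 and -2.03.

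By summed level, the collagens of CAST/Ei did not follow the order of the other families. Their median log2 ratio against naive cells was 3.504 in cluster 11 (16 of 21 chains higher) and 2.67 in cluster 8 (17 higher). Without the cell with most reads of each gene, the order of the medians turned. The middle chain then stood at 2.215 in cluster 11 (Col18a1) and at 2.828 in cluster 8 (Col11a1). Col1a1 had 126.8 CPM in cluster 11 and 26.2 CPM in cluster 8, Col3a1 312 and 81.1 CPM, Col5a1 83.5 and 22.1 CPM and Col4a2 147.4 and 74.7 CPM. By median cell only Col1a1 of these chains was still higher in cluster 11, with 32.9 and 18.5 CPM. Col3a1 had 14.5 and 37.4 CPM, Col5a1 2.15 and 16.6 CPM and Col4a2 1.04 and 48.5 CPM.

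Itga7 was higher in cluster 11 than in cluster 8 by its summed level. It had 358 CPM (352 to 364) in cluster 11 and 283 CPM (276 to 290) in cluster 8 of CAST/Ei, and 433 CPM (417 to 449) and 310 CPM (300 to 321) in C57BL/6. By median cell the order held in C57BL/6, with 565 and 295 CPM, and turned in CAST/Ei, with 159.1 and 200 CPM, as it did there without the top cell of each cluster (242 and 255 CPM). Itgav went the other way, at 107.9 CPM in cluster 11 and 280 CPM in cluster 8 of CAST/Ei, and at 42.6 and 483 CPM in C57BL/6, with 78.4% of the cluster 11 reads of C57BL/6 in 1 cell. Col5a2 stood at 408 and 530 CPM in CAST/Ei and at 59.1 and 281 CPM in C57BL/6, against 29.3 and 8.42 CPM in the naive neuron-like cells of each strain. Of the 7 C57BL/6 cluster 11 cells with 200000 reads or more, 5 had both Itga7 and Itgb1 at 5 or more thinned reads.

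**Figure D4:**
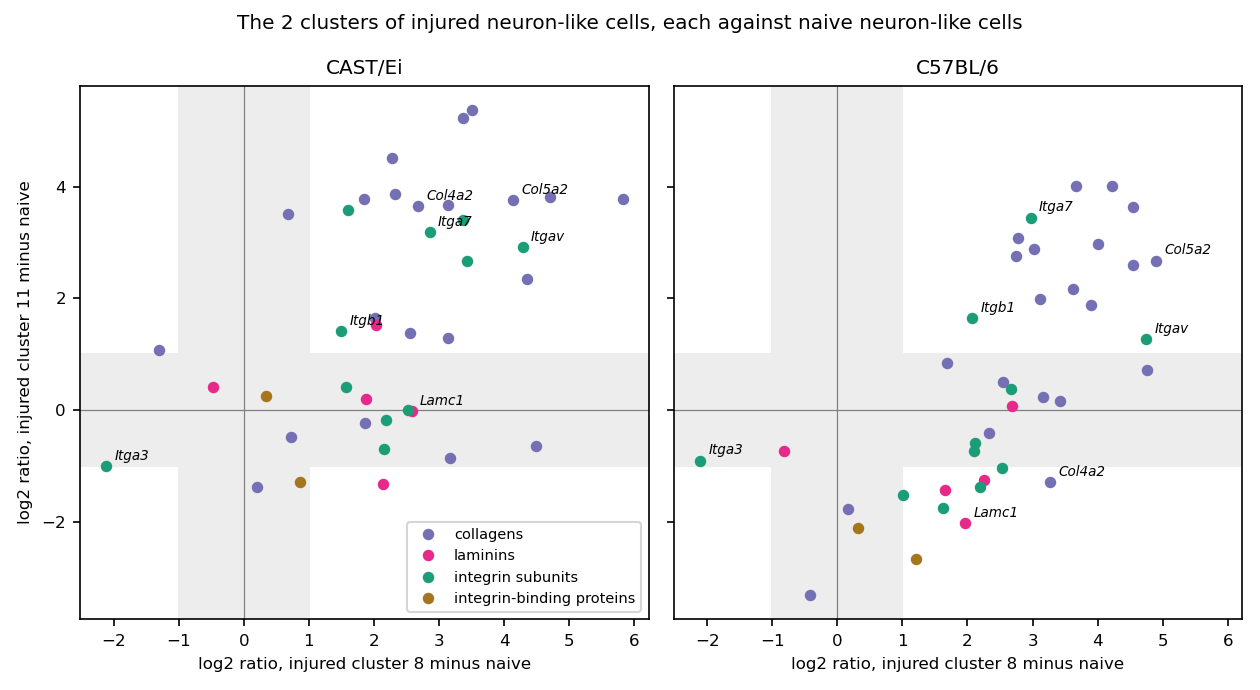
Log2 ratio of CPM + 1 against naive neuron-like cells, injured cluster 8 across and injured cluster 11 up, 1 point for each of the 39 genes, coloured by family, for CAST/Ei (left) and C57BL/6 (right), with grey bands under 2-fold. Itga7, Itgb1, Itgav and Col5a2 lie beyond 2-fold on both axes in both strains, while every laminin but Lama2 in CAST/Ei, 89.7% of whose cluster 11 reads came from 1 cell, lies inside or below the grey band on the cluster 11 axis.

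The median number of these genes found per cell was higher in injured than in naive neuron-like cells, and higher in cluster 8 than in cluster 11. At 5 or more reads after thinning to 200000 reads, the median injured neuron-like cell had 14 of the 39 genes in CAST/Ei and 20.5 in C57BL/6, against 5 and 4 in naive ones. Cells of cluster 8 had a median of 19 in CAST/Ei and 22 in C57BL/6, and cells of cluster 11 of 9 and 5. The other injured cells had more, with medians of 26.5 and 26 in fibroblast-like and of 21 and 25 in glia-like cells. The thinning left out 6 injured and 8 naive neuron-like cells of CAST/Ei, and 7 and 7 of C57BL/6. Free RNA was not measured.

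**Figure D5:**
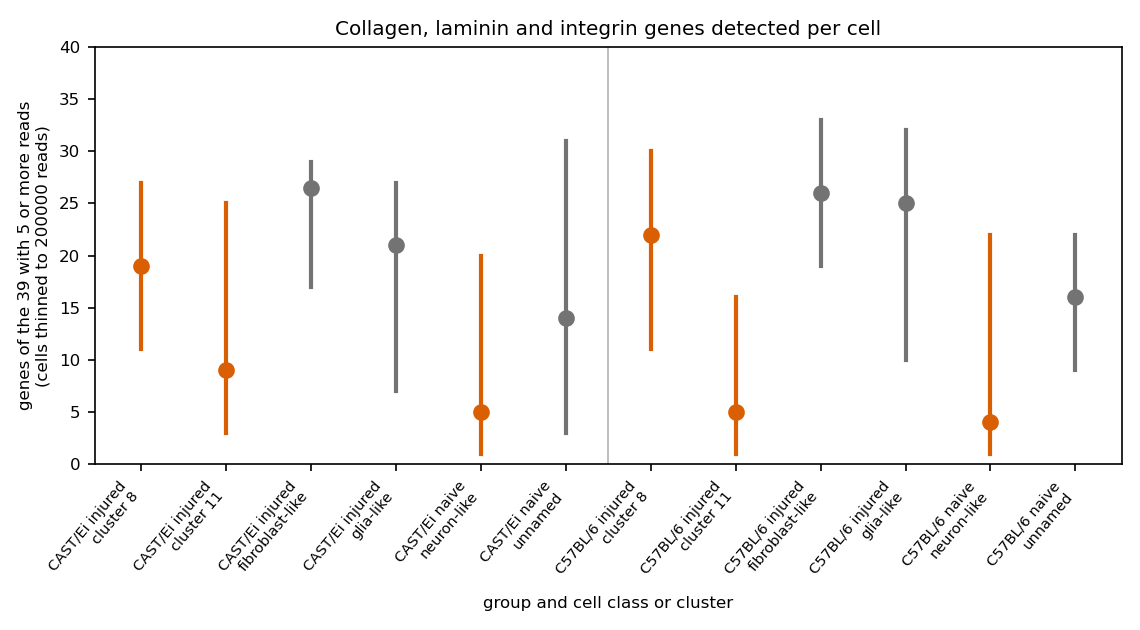
Number of the 39 genes with 5 or more reads in cells thinned to 200000 reads, with a point at the median cell and a line from the lowest to the highest cell, CAST/Ei on the left and C57BL/6 on the right, neuron-like cells in orange and other cells in grey. Cluster 8 medians of 19 and 22 lie near those of glia-like cells, and cluster 11 medians of 9 and 5 lie nearer the naive medians of 5 and 4.

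Between strains, the share of these genes that differed in naive neuron-like cells was slightly above that of all genes. CAST/Ei cells were at least 2-fold higher in 4 and 2-fold lower in 4 of the 39 (10.3% each way), against 7.23% and 6.2% of all genes. The median log2 ratio was 0.02. Naive cells of clusters 1, 2 and 4 were all C57BL/6 and those of clusters 7, 13 and 14 all CAST/Ei, so the 2 sets differ in composition. The higher genes with at least 10 CPM were Col5a2 (29.3 CPM in CAST/Ei against 8.42 CPM in C57BL/6, log2 ratio 1.68), Col4a1 (20.04 against 8.58 CPM, 1.13) and Col3a1 (21.7 against 9.62 CPM, 1.10), and Col6a1 was the remaining one at 6.46 against 2.49 CPM. Col5a2 had 5 or more thinned reads in 46.6% of naive CAST/Ei and 8.26% of naive C57BL/6 neuron-like cells. The lower ones, Col11a1, Col23a1, Col27a1 and Itgb5, all had under 10 CPM in both strains. The mm10 reference is a C57BL/6 genome, and the part of CAST/Ei sequence variants in these differences was not tested.

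Injured neuron-like cells of CAST/Ei were at least 2-fold higher than those of C57BL/6 in 10 genes and 2-fold lower in 7, against 21.4% and 14% of all genes, with a median log2 ratio of -0.10. Type I collagen was higher in CAST/Ei, Col1a2 with 549 against 232 CPM (1.24) and Col1a1 with 86.02 against 31.5 CPM (1.42), as were Col5a1 (1.59) and Col5a2 (447 against 192 CPM, 1.21). Itga5 (1.79), Col16a1 (1.45) and Col15a1 (1.24) were higher as well, but without the top cell of each gene and group their ratios were 0.31, 0.26 and 0.25. Col11a1 (8.37 against 68.5 CPM, -2.89), Col14a1 (2.63 against 22.5 CPM, -2.70), Col6a1 (-1.56) and Col18a1 (60.9 against 122.9 CPM, -1.002) were lower in CAST/Ei. In C57BL/6 cluster 11, 1 cell held 98.6% of the reads of Col11a1. Within cluster 8 Col11a1 had 21.5 CPM in CAST/Ei and 63.8 CPM in C57BL/6, and 15 and 53.98 CPM without the top cell. Cluster 8 cells made up 31 of the 61 injured neuron-like cells in CAST/Ei and 24 of the 35 in C57BL/6, so the 2 sets differ in composition. Within cluster 8 Col1a1 was lower in CAST/Ei, at 26.2 against 45.6 CPM, and Col5a1 was close (22.1 against 18.7 CPM). Col1a2 (785 against 325 CPM) and Col5a2 (530 against 281 CPM) were higher in CAST/Ei there too. In cluster 11 Col1a1 had 126.8 against 5.12 CPM and Col5a1 83.5 against 18.9 CPM. Itga7, at 322 and 350.0 CPM, and Itgb1, at 791 and 715 CPM, differed by less than 2-fold.

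The log2 ratio of injured to naive cells was larger in CAST/Ei than in C57BL/6 by at least 1 in 8 genes and smaller by at least 1 in 6, against 19.6% and 15.7% of all genes. Col5a1 (4.86 in CAST/Ei, 2.76 in C57BL/6), Col16a1 (4.73 and 2.76), Col27a1 (3.45 and 1.72) and Itga5 (3.06 and 1.52) were among the larger ones. Col14a1 (0.92 and 4.06), Col6a1 (-0.58 and 2.07) and Col11a1 (1.91 and 3.77) were among the smaller ones. Without the top cell of each gene and group 3 genes were larger and 9 smaller, with Itga5 at a difference of -0.0105, Col16a1 at 0.55 and Col27a1 at 1.02. With 1 sample per group these differences were not tested.

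Within each group, neuron-like cells had lower levels of most of these genes than the other cells captured with them. Among injured CAST/Ei cells 1 gene was at least 2-fold higher and 26 were 2-fold lower in neuron-like than in other cells (19.9% and 23.2% of all genes), and among injured C57BL/6 cells 2 and 31 were (17.6% and 27.7%). Among naive cells 0 were higher and 33 lower in CAST/Ei (31.3% and 23.6% of all genes), and 0 and 31 in C57BL/6 (32.9% and 24.3%). There the other cells were the unnamed cluster, which had neuron markers too. Medians of the log2 ratio were -1.49 and -1.80 in injured CAST/Ei and C57BL/6 cells, and -2.93 and -3.18 in naive ones.

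Itga3 and Itga7 were the exceptions in injured cells. Itga3 had 9.53 CPM in neuron-like CAST/Ei cells, 0.188 CPM in fibroblast-like cells and no read in 34265648 reads of glia-like cells, which allows up to 0.0876 CPM. In injured C57BL/6 cells it had 12.4 CPM in neuron-like, 0.509 CPM in fibroblast-like and 4.57 CPM in glia-like cells. Itga7 had 322 CPM in neuron-like, 40.5 CPM in fibroblast-like and 231 CPM in glia-like CAST/Ei cells, and 350.0, 93 and 263 CPM in the same C57BL/6 classes. These 2 genes had their highest summed level in neuron-like cells in both strains, where 21 of the 39 in CAST/Ei and 17 in C57BL/6 had it in fibroblast-like cells and 16 and 20 in glia-like cells. In neuron-like cells of cluster 11, at 358 CPM in CAST/Ei and 433 CPM in C57BL/6, its summed level lay further above that of glia-like cells, while the median CAST/Ei cell had 159.1 CPM in cluster 11 and 185 CPM among glia-like cells.

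Fibroblast-like and glia-like cells held different chains. All chains of types I, III, IV and VI were highest in fibroblast-like cells of both strains, for example Col1a2 with 549 CPM in neuron-like, 4360.4 CPM in fibroblast-like and 1434 CPM in glia-like CAST/Ei cells, and Col3a1 with 218, 1475 and 64.2 CPM. Col28a1 and Col18a1 were highest in glia-like cells of both strains, Col28a1 with 74.8 CPM in neuron-like, 472 CPM in glia-like and 25.7 CPM in fibroblast-like CAST/Ei cells, and with 120.95, 472 and 87.03 CPM in C57BL/6. Itga5 was highest in fibroblast-like cells, at 55.6 CPM in CAST/Ei and 54.3 CPM in C57BL/6, and Itga6, Itgb4, Itgb8, Itgav and Itgb1 in glia-like cells of both strains. Glia-like cells of CAST/Ei lay in cluster 12, whereas 30 of the 33 of C57BL/6 lay in cluster 10.

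Naive neuron-like cells differed among themselves. The 51 cells of cluster 3, with Tac1, Trpv1 and Cacna1e among their 10 leading genes, had 50.9 CPM of Lamb1 in CAST/Ei and 50.2 CPM in C57BL/6, and no other naive neuron-like cluster had more than 19.1 CPM. Cluster 6, led by Sst and Nppb, which mark itch neurons, had the highest Itga3 in both strains, at 49.7 CPM in its 12 CAST/Ei cells and 63.8 CPM in its 6 C57BL/6 cells, where 1 cell held 69.1% of the reads. Itgb1 ranged over these clusters from 135.2 to 339 CPM in CAST/Ei and from 87.4 to 278 CPM in C57BL/6. Clusters were built from other genes, and these values are given without a test.

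Joint detection of known pairs differed between pairs and groups. At 5 or more thinned reads, both Itga7 and Itgb1 were found in 81.8% (69.1 to 90.9, exact Clopper-Pearson interval) of injured and 50.7% (42.3 to 58.98) of naive CAST/Ei neuron-like cells, and in 92.9% (76.5 to 99.1) and 42.2% (32.8 to 52.04) of C57BL/6 ones. With Itgb1 in nearly every cell, these shares follow those of Itga7 alone. Itga3 and Itgb1 were found together in 9.09% of injured and 38.5% of naive CAST/Ei cells, and in 17.9% and 33.9% of C57BL/6 cells. Itgav and Itgb8 were found together in 43.6% of injured and 4.05% of naive CAST/Ei cells, and in 53.6% and 1.83% of C57BL/6 cells. Col1a1 was almost never found without Col1a2, in 2 injured and 1 naive CAST/Ei neuron-like cells and in none of either C57BL/6 set, while Col1a2 was found without Col1a1 in 24 and 25 CAST/Ei cells and 13 and 11 C57BL/6 cells. The Col4a1 and Col4a2 pair was found together in 40% of injured and 7.43% of naive CAST/Ei cells, and in 57.1% and 5.50% of C57BL/6 cells.

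Genes that act with these proteins were followed as 5 lists, where 23.1% of all genes were higher and 22.5% lower in CAST/Ei and 20.8% and 24.3% in C57BL/6. Of 26 measured genes of collagen synthesis and processing 15 were at least 2-fold higher and 3 lower in injured CAST/Ei neuron-like cells, and 17 and 1 in C57BL/6. Serpinh1, the collagen chaperone, had log2 ratios of 4.63 and 3.52, the lysyl oxidase Lox 4.61 and 1.67, and the procollagen C-proteinase Bmp1 4.22 and 3.38. Adamts3, a procollagen N-proteinase, was lower, at 7.83 against 92.4 CPM in CAST/Ei (-3.40) and 9.57 against 244 CPM in C57BL/6 (-4.54). Of 16 genes of matrix degradation 8 were higher and 3 lower in CAST/Ei and 9 and 0 in C57BL/6. The inhibitor Timp1 (191 against 2.50 CPM in CAST/Ei, 5.78, and 142.5 against 4.86 CPM in C57BL/6, 4.61) and the membrane proteases Mmp14 (3.46 and 2.82) and Mmp16 (1.81 and 3.20) were among the higher ones. Of 7 basement membrane partners 5 were higher and 1 lower in CAST/Ei and 5 and 0 in C57BL/6, with the laminin binder Nid1 at 159.1 against 10.4 CPM (3.81) and 189 against 21.1 CPM (3.10).

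Other matrix receptors were 11 higher and 2 lower of 21 in CAST/Ei and 10 and 4 in C57BL/6. The collagen receptor Ddr2 had ratios of 3.58 and 2.56, the syndecan Sdc1 3.36 and 4.30, and the dystroglycan gene Dag1, another laminin receptor, 2.55 and 2.49, while the tetraspanin Cd82 was lower (-3.09 and -2.21). Cd151, a tetraspanin that binds alpha 3 beta 1 and other laminin-binding integrins, was lower, at 252 against 517 CPM in CAST/Ei (-1.04) and 46.3 against 136.7 CPM in C57BL/6 (-1.54). Of the laminin-binding alpha subunits Itga3 was lower in both strains, Itga7 was higher in both, and Itga6 passed 2-fold upward in CAST/Ei only. Integrin adaptors and signalling genes were 11 higher and 3 lower of 26 in CAST/Ei and 8 and 3 in C57BL/6, that is 42.3% and 30.8% higher, nearest of the 5 lists to the shares of all genes. Git1 (3.10 and 2.32), Src (2.98 and 2.32) and paxillin, Pxn (2.57 and 2.48), were higher, and the talin gene Tln2 was lower (-1.31 and -2.39), while the kindlin gene Fermt2 (0.67 and 0.31) and Ilk (0.32 in each) were under 2-fold. Medians of the log2 ratio in CAST/Ei and C57BL/6 were 1.42 and 1.30 for synthesis, 0.51 and 1.05 for degradation, 1.91 and 1.69 for basement membrane partners, 1.21 and 0.96 for other receptors, and 0.65 and 0.38 for adaptors, beside 0.01 and -0.15 over all genes.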

How the data were processed

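RNA of 516 single cells of mouse dorsal root ganglia was captured on a Fluidigm C1 chip, amplified and sequenced without molecular identifiers. The deposited values are whole read counts per gene and cell that the authors left unnormalized, and the submitters' processing notes name Bowtie2, SAMtools and mm10, with no roles or versions. Which program counted the reads, with what annotation and strand setting, is not given in the sources used here. Bowtie2 joins no reads across introns. Per the labels, cells of all conditions shared each sequencing run.

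Counts were summed per group and cell class and given as CPM, with exact 95% Poisson intervals, and differences as log2 ratios of CPM + 1, where a gene at 2-fold or more counts as passed. No test was made, since the labels name no animal or culture and each group is 1 sample. Cells do not stand for replicates, and with no molecular identifiers intervals cover counting error only. Depth ran from 13932 to 2978345 reads a cell. For shares and genes per cell, cells were thinned to 200000 reads, and a gene needed 5 reads. Floors are 3 reads. No row without a gene name and no unused column (0) was met, no mitochondrial gene (0) is listed, and doublets were not removed.

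Cells were clustered with scanpy 1.11.5 (Python 3.11.15, numpy 2.4.6, pandas 2.3.3, scipy 1.17.1, igraph 0.11.9) on 2000 variable genes without the 39, of which 22 would have been variable, with 20 components, 15 neighbours and Leiden resolution 1, which gave 14 clusters. Classes came from marker lists with at least 50% of their genes in the table, a limit set after values were seen. The ratios of summed CPM were tested on simulated counts with known fold changes, drawn without cell types. The clustering, the classes and the thinning were not tested in this way. The 39 genes, the lists and the comparisons were chosen with earlier results of these data known. Named genes are those with 10 CPM or more in either group among the 10 highest and 10 lowest of each injured against naive comparison and the 5 of each strain comparison, the main nerve chains and receptors, and up to 4 genes of each pathway list, to which Cd151, Fermt2 and Ilk were added after their values were seen. Figures used matplotlib 3.10.9, and gene positions and exon lengths GENCODE vM21 (GRCm38). Alternatives changed the clustering, the classes, the scaling, the pseudocount, the low-value filter and the cells kept.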

Additional observations from a re-analysis of the deposited data

Results flagged for a closer look

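By summed level, Col23a1 and Col6a1 moved in opposite directions in injured against naive neuron-like cells of the 2 strains. The log2 ratio of Col23a1, a transmembrane collagen, was 0.5032 in CAST/Ei and -1.044 in C57BL/6. That of Col6a1, a type VI chain, was -0.5785 in CAST/Ei and 2.074 in C57BL/6. Without the top cell, the naive CAST/Ei level of Col6a1 was 3.59 CPM. By cluster its CAST/Ei ratio was 0.20 in cluster 8 and -1.38 in cluster 11, and 0.60 and -1.145 without the top cells. With 1 sample per group, the difference between strains was not tested for either gene. In injured CAST/Ei cells 1 cell held 71.7% of the reads of Col23a1, and without the top cell of each group its CAST/Ei ratio was -0.31, the same sign as in C57BL/6.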

How the results depend on the processing

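No paired analysis was possible because no result comes from a test and the numbers in the labels only name cells. Over the alternatives, genes 2-fold or more higher in injured neuron-like cells numbered 23 to 33 in CAST/Ei and 15 to 32 in C57BL/6. Over them Itga7 (2.78 to 3.19 in CAST/Ei, 2.89 to 3.63 in C57BL/6), Itgb1 and Itgav stayed higher and Itga3 lower. These ranges leave out cluster 11 without the cell with most reads of each gene. There 7 genes were higher in C57BL/6, with Itgav at -0.21, Itgb1 at 0.87 and Itga7 at 3.39. In CAST/Ei 19 genes were, with Itgav at 2.46, Itgb1 at 1.31 and Itga7 at 2.73. A limit of 200000 reads a cell moved no count by more than 1.5 times. Where a change follows, the cause was not tested.

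In C57BL/6, 31 genes were higher and 2 lower in injured cells. With only cluster 11 as injured cells, 15 were higher and 12 lower, and Col27a1 (-0.42), Col4a2 (-1.29), Itga1 (-0.74), Itga5 (-0.59), Itgb3 (-1.04), Itgb4 (-1.37), Lama2 (-1.25), Lama4 (-1.44) and Lamc1 (-2.03) turned lower. With each cell classed by its own markers, 20 were higher, and Itga1 (-0.34), Lama2 (-0.0222) and Lamc1 (-0.10) turned. Under that rule injured neuron-like cells numbered 21 in place of 35 in C57BL/6, and 47 in place of 61 in CAST/Ei. Naive numbers changed little. The lower count was 1 with genes of at least 10 CPM, with the mean of cell CPM, with median-of-ratios scaling and without the marker-rich cells (the neuron-like cells with most markers of other cells), and 0 with a pseudocount of 10. In CAST/Ei (29 and 1), the lower count was 4 with cluster 11 alone, 2 without the top cell of each gene and 0 with a pseudocount of 10. With cluster 11 alone Col11a1 (-0.87), Col28a1 (-0.65), Itga6 (-0.0065), Itgb4 (-0.18), Itgb5 (-0.70) and Lamc1 (-0.027) turned, and by own markers Col11a1 (-0.16) and Itgb4 (-0.20).

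Between naive strains (4 higher, 4 lower in CAST/Ei), 2 were higher with the mean of cell CPM, 2 higher and 7 lower without the marker-rich cells, 1 and 0 with a pseudocount of 10, 8 lower with 0.1 and 0 lower with genes of at least 10 CPM. Between injured strains (10 and 7), Leiden resolutions of 0.5 and 2 gave 3 lower and Col6a2 at 0.30, clustering with the 39 genes 4 lower and Col6a2 at 0.31, own markers 16 higher, 4 lower and Itga1 at 0.39, and cluster 11 alone 19 higher, 3 lower, Col6a2 at 0.33, Itga1 at 0.45 and Itgb4 at 0.31. Genes of at least 10 CPM gave 4 lower, the mean of cell CPM 5 higher, median-of-ratios 6 higher, a pseudocount of 10 6 higher and 2 lower, and leaving out the top cell 4 higher. For the difference of responses (8 and 6), own markers gave 16 higher, cluster 11 23 with Lamb1 at 0.12, a pseudocount of 10 3 and 3, leaving out the top cell 3 higher with Itga5 at -0.0105, and leaving out the marker-rich cells 11 lower.

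Genes higher in neuron-like than other cells stayed few. In injured CAST/Ei (1) there were 2 with cluster 11, median-of-ratios or without the marker-rich cells, and 0 with genes of at least 10 CPM or a pseudocount of 10. In injured C57BL/6 (2) a pseudocount of 10 gave 1. In naive CAST/Ei (0) own markers or leaving out the top cell gave 1. In naive C57BL/6 (0) the mean of cell CPM or leaving out the marker-rich cells gave 1, and naming mural clusters from fewer genes, a pseudocount of 0.1 or leaving out the top cell gave 2.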
